A study of Homo sapiens with 24 samples.

Results

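The mitochondrial chromosome of human cells carries 37 genes, and all 37 were found among the 58676 genes counted in HepG2 cells, an established liver cancer line, by taking every gene whose symbol begins with MT-. They comprise 13 mRNA genes, 2 rRNA genes and 22 tRNA genes. The cells had been transfected with siControl, a non-targeting siRNA, or with an siRNA against IGF2BP1, IGF2BP2 or IGF2BP3, the members of a family of cytoplasmic mRNA-binding proteins. Actinomycin D, a drug that binds DNA and blocks transcription, was then added for 0, 3 or 6 h, and each of the 12 groups had 2 libraries of polyA RNA, 24 in all. All groups share the HepG2 background and the transfection, and no untransfected group was analysed here. A single transfected plate per siRNA was divided into the plates of the 3 times, so the times of a condition share a transfection, and the replicates are called independent in the study without saying whether they came from separate cultures. The comparisons ask how much of each mitochondrial RNA was present, how fast it was lost, and whether loss of an IGF2BP protein changed either.

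Both strands of the mitochondrial chromosome are copied inside the organelle by a single RNA polymerase, POLRMT, into long precursors that hold many genes. Most mRNAs and both rRNAs are flanked by tRNAs, and cutting at the tRNAs releases the separate RNAs. The mRNAs encode core subunits of the respiratory chain and of ATP synthase, have almost no untranslated sequence and receive short polyA tails, which complete the stop codon of several of them. MT-ND6 is the only mRNA copied from the other strand. IGF2BP proteins are known as binders of mRNA made in the nucleus.

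Of the 13 mRNA genes as annotated, 6 end in the reference (hg38) with 1 or 2 bases of a stop codon and 7 with a full one. The last 24 bases of 4 annotated genes are shown, 5′ to 3′ with the last codon or its remaining bases in capitals. These 4 were chosen because the first pair turned out to be lost fastest and the second pair slowest. Where the mRNAs themselves end was not measured, and 72 bases separate the MT-CO1 gene from the next gene on its strand. The ends lie at chrM:5488-5511, chrM:15864-15887, chrM:7422-7445 and chrM:12114-12137, all on the plus strand.
MT-ND2: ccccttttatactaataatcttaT
MT-CYB: aaaacaaaatactcaaatgggccT
MT-CO1: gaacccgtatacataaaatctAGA
MT-ND4: acatcattaccgggttttcctctT

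MT-ATP8 and MT-ATP6 share 46 bases, chrM:8527-8572, in different reading frames of one transcript, and MT-ND4L and MT-ND4 share 7 bases, chrM:10760-10766. The sequences around the start and the end of the longer overlap are shown because reads from it cannot be given to one gene. The first, chrM:8518-8541, has the start codon of MT-ATP6 in capitals. The second, chrM:8558-8581, has the stop codon of MT-ATP8 in capitals, and the third, chrM:10750-10776, has the whole shared stretch of MT-ND4L and MT-ND4.
MT-ATP6 start: agaaccaaaATGaacgaaaatctg
MT-ATP8 end: cccccacaatccTAGgcctacccg
MT-ND4L and MT-ND4: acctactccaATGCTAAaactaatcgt
MT-ATP8 is 207 bases long, and a 100-base read can start at 63 positions without touching another gene on its strand.

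The libraries held 31843248 to 74252042 gene reads and 50889 to 119088 reads of the ERCC spike-in, synthetic RNAs added in proportion to total RNA. Values below are reads per 1000 ERCC reads unless another unit is named, and a fold change is a log2 difference on that scale. At 0 h the targeted mRNAs were lower in their own knockdown: IGF2BP1 stood at 473 to 527 in siControl and at 103 to 104 in siIGF2BP1. IGF2BP2 stood at 131 to 144 in siControl and at 38.0 to 38.2 in siIGF2BP2, and IGF2BP3 at 74.0 to 86.4 in siControl and at 29.8 to 30.4 in siIGF2BP3. The liver markers ALB and AFP were at 10740 to 17360 and 11610 to 18430 CPM (counts scaled to library size), while the blood marker PTPRC and the fibroblast marker COL3A1 did not exceed 0.0181 and 0.16 CPM. Replicate libraries differed by more than counting noise in every group, with a chi-square per degree of freedom of 3.24 to 8.49, so none was a repeat of another.

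Mitochondrial genes took 5.46% to 5.75% of gene reads at 0 h, 3.88% to 4.06% at 3 h and 2.78% to 2.99% at 6 h. The 3 classes of RNA moved differently. In siControl the summed mRNAs stood at 38881 at 0 h, 22798 at 3 h and 14104 at 6 h, which left 36.3% ± 1.68 (SD, n = 2) of the 0 h level. The summed rRNAs stood at 102% ± 1.14 (SD, n = 2) of their 0 h level at 6 h, and the reads in tRNA genes at 9.94% ± 0.332 (SD, n = 2). The same order was found in each knockdown, where mRNAs were left at 39.3%, 36.8% and 38.8%, rRNAs at 109%, 116% and 101%, and tRNA-gene reads at 9.44%, 9.16% and 10.4% in siIGF2BP1, siIGF2BP2 and siIGF2BP3. In these bulk libraries fewer mitochondrial genomes and less RNA per genome cannot be told apart. The ERCC RNA was added in proportion to total RNA, so a change in total RNA per cell would also move these values. Because polyA RNA was selected, loss of an RNA and loss of its tail cannot be told apart either.

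Before actinomycin D, the mRNAs of cytochrome c oxidase and of ND4 were the most abundant per length in siControl. Per 1000 bases of gene, the 0 h level was 6457 for MT-CO2, 6091 for MT-CO1 and 5058 for MT-ND4, followed by 3647 for MT-ND1. The middle of the range was held by MT-ATP8 at 3114, MT-ATP6 at 2999, MT-CO3 at 2702, MT-ND5 at 2439, MT-ND2 at 2343, MT-CYB at 1912 and MT-ND4L at 1744. MT-ND3 at 522 and MT-ND6 at 131 were far below the rest. MT-RNR2, the large rRNA, stood at 245 per 1000 bases and MT-RNR1, the small rRNA, at 32.7. Because polyA RNA was selected, the rRNA values are not levels of all rRNA in the cell.

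All 13 mRNAs fell after actinomycin D in siControl, but at very different speeds. MT-ND2, a subunit of complex I, and MT-CYB, the only mitochondrially encoded subunit of complex III, were nearly gone by 6 h, whereas MT-ND4 and MT-CO1 were still abundant. MT-ND2 stood at 2602 and 2280 at 0 h, at 545 and 525 at 3 h and at 181 and 166 at 6 h, and 7.12% ± 0.44 was left. MT-CYB stood at 2315 and 2048, then at 480 and 459, then at 167 and 154, and 7.35% ± 0.42 was left. No library of one time overlapped a library of another time for either mRNA.

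MT-CO1, the catalytic subunit of cytochrome c oxidase, stood at 10179 and 8606 at 0 h, at 6558 and 6464 at 3 h and at 5036 and 4732 at 6 h, with 52.0% ± 2.29 left. MT-ND4, a complex I subunit, stood at 7575 and 6366, then at 5180 and 5126, then at 3552 and 3280, with 49.0% ± 2.76 left. These were the highest and the second highest share left. MT-ND4L, whose gene overlaps that of MT-ND4 on the same transcript, was left at 44.8% ± 1.33, from 544 and 492 at 0 h to 237 and 227 at 6 h. Reads of MT-ND4L per 100 reads of MT-ND4 had a median over 8 libraries of 7.39 at 0 h, 6.99 at 3 h and 7.02 at 6 h, so the pair moved nearly together.

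The other complex IV mRNAs lay on either side of the middle. MT-CO2 stood at 4720 and 4113 at 0 h, at 2683 and 2651 at 3 h and at 1815 and 1696 at 6 h, with 39.7% ± 1.90 left. MT-CO3 went from 2250 and 1988 to 1026 and 1040 and then to 466 and 459, with 21.9% ± 0.24 left. The 3 subunits of a single enzyme thus kept different shares of their mRNA, and the groups of libraries did not overlap between times for any of them.

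Among the remaining complex I mRNAs, MT-ND1 was left at 17.4% ± 0.98, from 3688 and 3286 at 0 h over 1499 and 1470 at 3 h to 631 and 583 at 6 h. MT-ND5 was left at 35.6% ± 1.62, from 4757 and 4082 over 2895 and 2851 to 1624 and 1523. Both less abundant mRNAs were in the faster part of the range. MT-ND3 fell from 197 and 164 at 0 h over 63.4 and 63.8 at 3 h to 28.8 and 27.6 at 6 h, with 15.6% ± 0.49 left. MT-ND6 fell from 76.5 and 60.9 to 20.9 and 20.8 and then to 10.3 and 8.95, with 14.02% ± 1.39 left.

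The MT-ND6 gene lies opposite sequence that is also copied from the other strand. Whether strand was used in counting is not given in the sources used here, so reads of MT-ND6 and of antisense RNA could not be separated with certainty. The ATP synthase mRNAs came from one transcript and fell alike in siControl. MT-ATP6, a subunit of the proton channel, went from 2216 and 1869 at 0 h over 1248 and 1245 at 3 h to 630.2 and 608 at 6 h, with 30.3% ± 0.78 left. MT-ATP8 went from 687 and 603 over 389 and 379 to 187 and 178, with 28.3% ± 0.92 left.

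**Figure D1:**
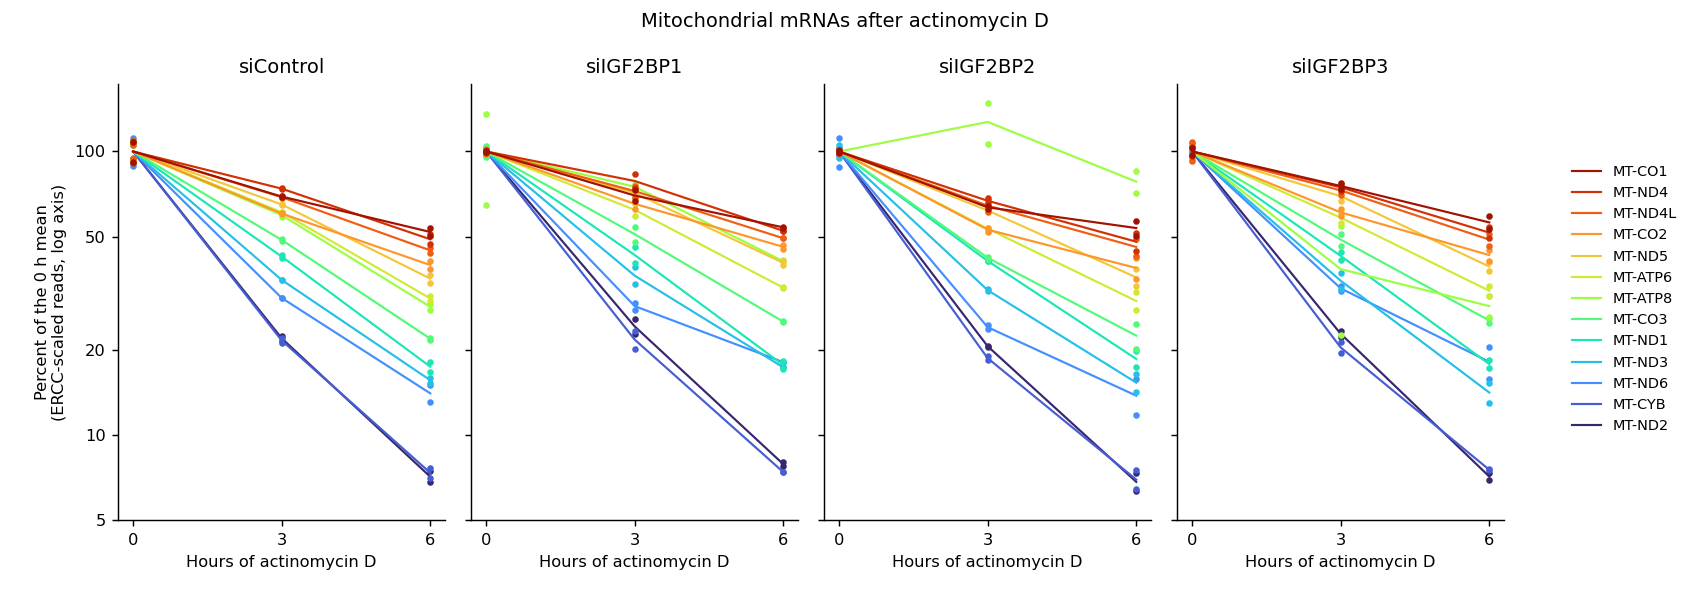
Level of the 13 mitochondrial mRNAs as a percent of their 0 h mean (y axis, log scale) against hours of actinomycin D (x axis), with 1 panel per siRNA. Points are the 2 libraries of a group and lines join the means. MT-ND2 and MT-CYB lie lowest at 6 h in every panel, at 6.83% to 7.89%, while the values of MT-ATP8 spread widely at 0 h in siIGF2BP1 and at 3 h in siIGF2BP2 and siIGF2BP3.

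In the straight-line fit over the 3 times (edgeR, adjusted p under 0.05 over 13136 genes), all 13 mRNAs fell in siControl, where 80.3% of all genes tested fell. A fall was therefore the rule in this comparison, and the size of the fall separates the mRNAs. Over 6 h MT-ND2 fell by 3.81 (SE 0.16, adjusted p = 6.34e-15) and MT-CYB by 3.77 (SE 0.22, adjusted p = 9.78e-13) on the log2 scale. MT-ND6 followed with a fall of 2.84 (SE 0.27), MT-ND3 with 2.68 (SE 0.13) and MT-ND1 with 2.52 (SE 0.08, adjusted p = 7.11e-17).

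In the middle stood MT-CO3, which fell by 2.19 (SE 0.10), MT-ATP8, which fell by 1.82 (SE 0.34, adjusted p = 4.71e-05), and MT-ATP6, which fell by 1.72 (SE 0.09). The smallest falls were those of MT-ND5, by 1.49 (SE 0.10), MT-CO2, by 1.33 (SE 0.10), and MT-ND4L, by 1.16 (SE 0.08). MT-ND4 fell by 1.03 (SE 0.09) and MT-CO1 by 0.94 (SE 0.09, adjusted p = 4.37e-09). The median over the mRNAs was -1.82, against -0.88 for all genes tested.

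The sign of the smallest falls depends on what they are set against. With TMM scaling, which sets the typical gene to no change and moved the median of all genes in siControl to -0.02, the median over the mRNAs was -0.95. On that scale MT-CO1 changed by -0.07 (adjusted p = 0.156) and MT-ND4 by -0.16 (adjusted p = 0.0531), and neither passed the test. Relative to the typical gene, then, a fall was not detected for this pair, while the other 11 mRNAs fell on both scales.

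**Figure D2:**
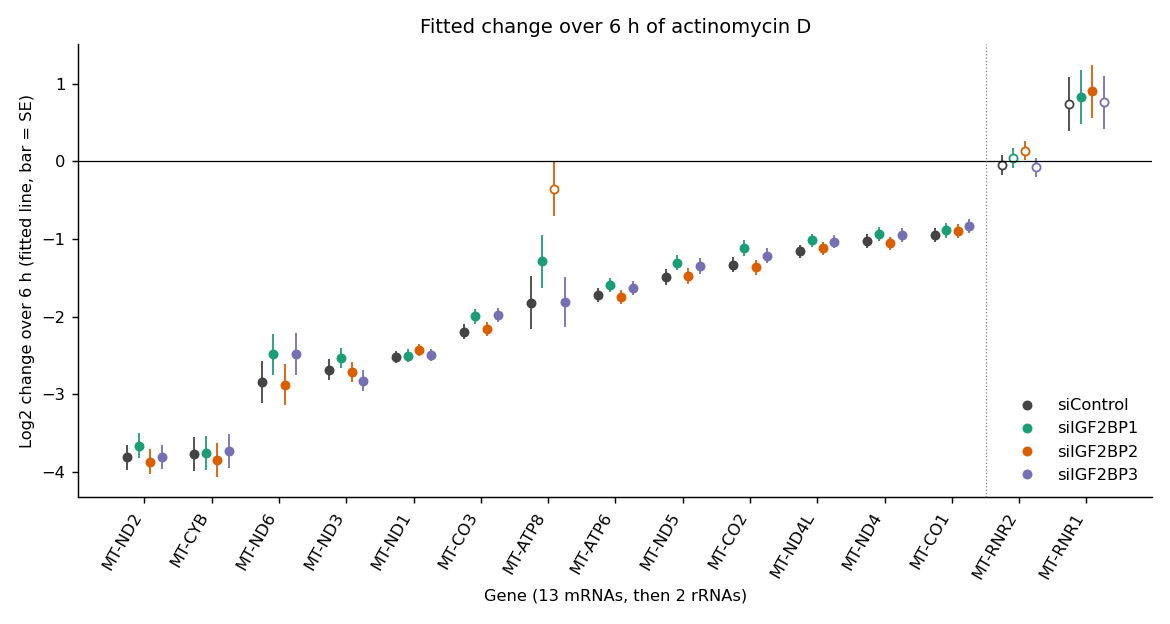
Fitted log2 change over 6 h of actinomycin D (y axis) for the 13 mRNAs and the 2 rRNAs (x axis), by siRNA. Bars are standard errors and filled points have an edgeR adjusted p under 0.05; the mRNAs run from -3.81 for MT-ND2 to -0.94 for MT-CO1 in siControl, and MT-ATP8 in siIGF2BP2 is the only mRNA point that is not filled.

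The composition of mitochondrial mRNA shifted with time, which needs no spike-in to be seen. As a mean over 8 libraries, MT-CO1 made up 24.1% of mitochondrial mRNA reads at 0 h, 28.6% at 3 h and 34.4% at 6 h. MT-ND4 went from 17.9% over 22.5% to 23.8%. MT-ND2 went from 6.44% over 2.45% to 1.23%, and MT-CYB from 5.48% over 1.92% to 1.06%. Per 100 reads of MT-CO1 there were 25.3 to 28.2 reads of MT-ND2 at 0 h, 8.12 to 9.11 at 3 h and 3.39 to 3.87 at 6 h, with no overlap between times among the 8 libraries of each.

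The speed of loss varied within respiratory complexes. Complex I alone ran from -3.81 for MT-ND2 to -1.03 for MT-ND4, with a median of -2.52 over 7 mRNAs. The median was -1.33 over the 3 mRNAs of complex IV and -1.77 over the 2 of ATP synthase, and complex III is MT-CYB alone. The 6 mRNAs with an incomplete stop codon had a median of -2.60 and the 7 with a complete one of -1.49, but MT-ND4, with a single T left of its stop, was among the slowest, and MT-ND6, with a full codon, among the fastest. Across the 13 genes, which are not independent replicates, the change over 6 h had Pearson's r of 0.13 with gene length and 0.47 with the log2 level per length at 0 h (Spearman's rho 0.18 and 0.61).

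For most mRNAs the 2 steps of 3 h did not differ by the test, and for 3 the later one was smaller. From 0 to 3 h all 13 mRNAs fell in siControl, as 61.3% of all genes did, and from 3 to 6 h all 13 fell again, as 64.9% of all genes did. With TMM scaling the first step of MT-ND4 was 0.021, so its early fall was not seen relative to the typical gene. MT-CYB fell by 2.22 in the first 3 h and by 1.55 in the second. MT-ND2 fell by 2.19 and then by 1.62, and MT-ND6 by 1.72 and then by 1.12. For these 3 mRNAs the second step was smaller, with a difference of 0.66 (SE 0.14, adjusted p = 4.22e-05) for MT-CYB, 0.60 (SE 0.17, adjusted p = 0.00397) for MT-ND6 and 0.57 (SE 0.14, adjusted p = 0.000693) for MT-ND2. A positive difference was called for 10.9% of all genes, and the median over all genes was -0.03.

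The other 10 mRNAs differed between the steps by -0.33 for MT-ATP8 to 0.33 for MT-ND3, and none of these differences passed the test. MT-ATP6, for instance, fell by 0.71 and then by 1.01, and MT-CO1 by 0.53 and then by 0.41. The first step of MT-ATP8, a fall of 0.75, was lost when its spread was estimated from its own libraries (adjusted p = 0.0928 in edgeR's robust fit). In the knockdowns the second step was again smaller for MT-CYB, by 0.65, 1.00 and 0.86, for MT-ND2, by 0.44, 0.69 and 0.46, and for MT-ND6, by 1.16, 1.26 and 0.75, in siIGF2BP1, siIGF2BP2 and siIGF2BP3. All 9 of these differences passed the test. In all, 3, 6 and 4 of the 13 mRNAs had a called positive difference, where 10.8%, 17.8% and 11.3% of all genes did. The others were MT-CO2 (0.47), MT-ND3 (0.54) and MT-CO1 (0.41) in siIGF2BP2, where the median over all genes was itself 0.24, and MT-ATP8 (0.95) in siIGF2BP3. Among the mRNAs, MT-ATP8 had the called negative differences, -0.46 in siIGF2BP1 and -1.05 in siIGF2BP2, where 0.632% and 0.266% of all genes had one. None of the 3 MT-ATP8 calls passed when the spread of MT-ATP8 was estimated from its own libraries (adjusted p = 0.833, 0.302 and 0.527 in edgeR's robust fit). The other mRNA calls passed in that fit. It left those mRNAs at or close to the spread shared by all genes, so it was no separate check of them.

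Expressed as half-lifetimes, from the mean of the decay rates over 3 h and over 6 h, the siControl values ran from 1.46 h for MT-CYB and 1.46 h for MT-ND2 to 6.00 h for MT-CO1 and 6.31 h for MT-ND4. Between them lay MT-ND6 at 1.91 h, MT-ND3 at 2.11 h, MT-ND1 at 2.41 h and MT-CO3 at 2.81 h. MT-ATP8 had 3.62 h, MT-ATP6 3.81 h, MT-CO2 4.31 h, MT-ND5 4.39 h and MT-ND4L 5.38 h. The short half-lifetimes were almost the same in every condition, at 1.55 h, 1.42 h and 1.48 h for MT-ND2 and at 1.47 h, 1.38 h and 1.44 h for MT-CYB in siIGF2BP1, siIGF2BP2 and siIGF2BP3. The long ones varied more, at 6.24 h, 5.44 h and 7.31 h for MT-CO1 and at 7.40 h, 5.42 h and 6.70 h for MT-ND4. No test was run on half-lifetimes, and each rests on the means of 2 libraries. The calculation takes transcription as stopped, and whether actinomycin D stopped it inside mitochondria was not measured.

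The order of the mRNAs by the share left at 6 h was close to fixed across the 4 conditions. MT-ND2 and MT-CYB held the lowest places in each, MT-CO3 was the sixth in each, and MT-CO1 and MT-ND4 held places among the last 3. MT-ATP8 took places from 7 to 13. Libraries of neighbouring mRNAs were apart in all 4 conditions between MT-CYB and MT-ND6, MT-ND1 and MT-CO3, MT-CO3 and MT-ATP8, MT-ATP6 and MT-ND5, and MT-CO2 and MT-ND4L. MT-ND2 and MT-CYB, and MT-ND4 and MT-CO1, were apart in 1 of 4 conditions, so the order within these pairs is not resolved.

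The rRNAs behaved differently from the mRNAs, and MT-RNR1, the 12S rRNA of the small mitochondrial ribosome subunit, rose. In siControl it stood at 34.6 and 27.8 at 0 h, at 64.4 and 64.0 at 3 h and at 51.0 and 53.3 at 6 h. From 0 to 3 h it rose by 1.04 (SE 0.09, adjusted p = 2.57e-30), where 0.906% of all genes rose. From 3 to 6 h it fell by 0.30 (adjusted p = 0.00143), though with TMM scaling this step was 0.12. Over all conditions the 8 libraries of 0 h lay at 27.8 to 34.6, those of 3 h at 57.9 to 64.4 and those of 6 h at 46.6 to 66.1, so 0 h did not overlap with either later time.

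The rise from 0 to 3 h was found in every knockdown. In siIGF2BP1 MT-RNR1 went from 29.2 and 29.3 to 63.2 and 57.9, a rise of 1.05 (SE 0.09, adjusted p = 5.36e-30, with 1.08% of all genes higher). In siIGF2BP2 it went from 30.3 and 32.8 to 64.4 and 59.9, a rise of 0.98 (SE 0.09, adjusted p = 8.75e-27, with 0.312% of all genes higher). In siIGF2BP3 it went from 32.6 and 31.4 to 60.9 and 57.9, a rise of 0.89 (SE 0.09, adjusted p = 5.29e-22, with 1.79% of all genes higher). With TMM scaling the siControl rise was 1.503, and against the total of nuclear gene reads 1.28. A straight line describes this course poorly, and its slope was 0.74 (SE 0.35, adjusted p = 0.0562) in siControl, or 1.61 (adjusted p = 0.000894) with TMM scaling. In siIGF2BP1, siIGF2BP2 and siIGF2BP3 it was 0.83 (adjusted p = 0.0373), 0.91 (0.0210) and 0.76 (0.0523). The first of these calls was lost without either 0 h library of siIGF2BP1 (0.60 and 0.61) and the second without either 0 h library of siIGF2BP2 (0.68 and 0.78).

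MT-RNR2, the 16S rRNA of the large subunit, stayed near its level. In siControl it stood at 405 and 360 at 0 h, at 419 and 444 at 3 h and at 376 and 367 at 6 h. It changed by 0.18 (SE 0.08, adjusted p = 0.0483) and then by -0.22 (SE 0.08, adjusted p = 0.0129). Neither step passed in DESeq2 (adjusted p = 0.230 and 0.121), and without replicate 2 of siControl at 0 h the first was 0.093 (adjusted p = 0.368). Over 6 h its slope was -0.04 in siControl and 0.05, 0.14 and -0.08 in siIGF2BP1, siIGF2BP2 and siIGF2BP3, none past the test. The sign of the siControl slope depends on the scale, since it was 0.83 (adjusted p = 2.23e-05) with TMM scaling and 0.47 against nuclear gene reads, and the second step was 0.20 and 0.064 on these scales. The ratio of the rRNAs is free of the scale: MT-RNR1 had 7.40 to 8.66 reads per 100 reads of MT-RNR2 at 0 h, 14.2 to 15.8 at 3 h and 12.7 to 14.8 at 6 h. The rRNAs are cut from a shared precursor, and which of their 3′ ends were captured was not measured.

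**Figure D3:**
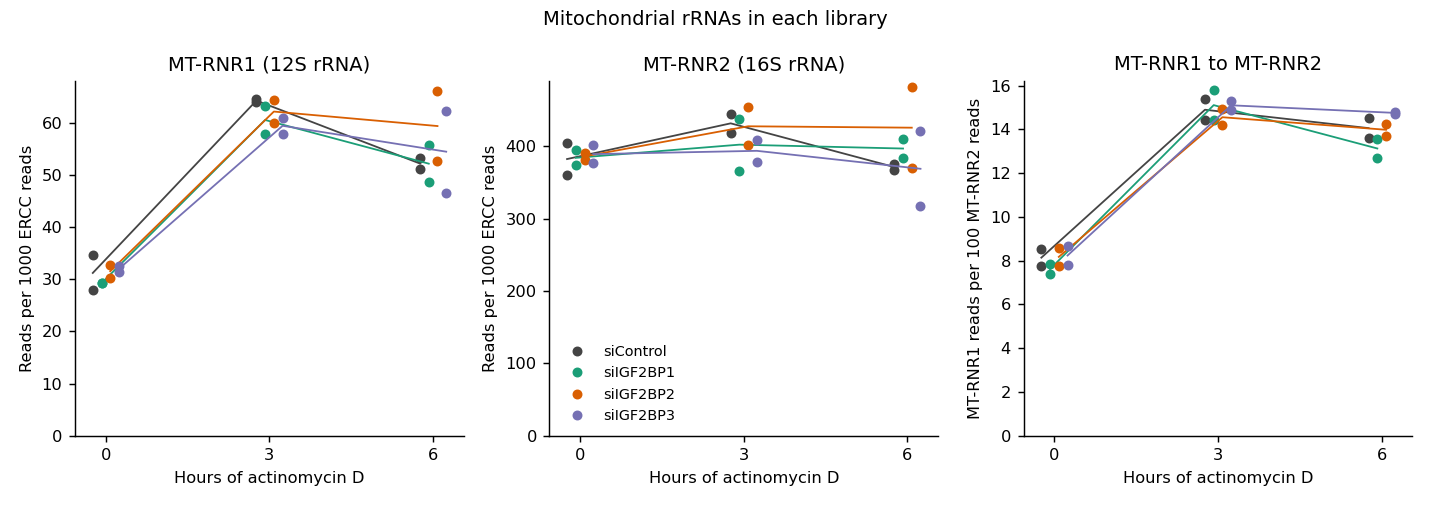
MT-RNR1 and MT-RNR2 in reads per 1000 ERCC reads, and MT-RNR1 reads per 100 MT-RNR2 reads (y axes of the 3 panels), against hours of actinomycin D (x axis) for the 4 siRNAs. Points are libraries and lines join means; MT-RNR1 lies at 27.8 to 34.6 at 0 h and at 57.9 to 64.4 at 3 h, while the ranges of MT-RNR2 overlap between times.

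Reads in tRNA genes were few and fell strongly. The 22 genes held 38023 reads in all 24 libraries, and 64.3% of these lay in MT-TW, the tRNA for tryptophan. Only 6 tRNA genes passed the filter on low counts, and they held 97.8% of the reads. The other 16 were not tested, the highest of them had 224 reads in all, and MT-TG, MT-TH and MT-TL2 had none. Mature tRNAs are shorter than the 100-base reads and most lie against another gene, so what these reads come from (precursors, antisense RNA or fragments) was not tested. The 9 tRNA genes in which no 100-base read can start without touching a neighbour held 92 reads.

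MT-TW lies directly behind MT-ND2. It stood at 27.4 and 23.1 at 0 h, at 8.09 and 8.51 at 3 h and at 3.30 and 3.16 at 6 h in siControl, and 4633 reads at 0 h against 752 at 6 h gave a 7.68-fold drop on the ERCC scale (7.11 to 8.30, 95% interval for counting error only). MT-TQ, the tRNA for glutamine, had 710 reads at 0 h, 6 at 3 h and 7 at 6 h, a 126-fold drop (61.0 to 316). MT-TA, the tRNA for alanine, had 328, 9 and 0 reads, which is at least 136-fold lower at 6 h when 3 reads over both libraries stand for 0. Most of the loss of this pair had thus taken place by 3 h.

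MT-TT, the tRNA for threonine, had 806, 58 and 44 reads and a 22.8-fold drop (16.9 to 31.7). MT-TP, the tRNA for proline, had 710, 52 and 40 reads and a 22.1-fold drop (16.1 to 31.2). MT-TS1, a tRNA for serine, had 572, 108 and 117 reads and a 6.09-fold drop (4.99 to 7.50). MT-TQ, MT-TA, MT-TP and MT-TS1 lie on the strand opposite to most mRNAs. All 6 fell over 6 h in every condition, where 67.2% to 80.3% of all genes did. From 0 to 3 h 6 of 6 fell in siControl, where 61.3% of all genes did. From 3 to 6 h 4 of 6 fell, a share close to the 64.9% of all genes. The second step was smaller than the first for MT-TQ, MT-TS1, MT-TT and MT-TP (adjusted p = 5.42e-05, 0.0115, 0.000325 and 0.00077). MT-TF, directly in front of MT-RNR1, did not pass the filter and was the tRNA gene described here with more reads later: 8, 17 and 19 in siControl, a ratio of 0 h to 6 h of 0.525 (0.199 to 1.26).

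Few mitochondrial RNAs differed from siControl at 0 h after knockdown of the IGF2BP proteins. In siIGF2BP1, 1 of the 21 genes tested differed, where 4.94% of all genes did. In siIGF2BP2, 2 of 21 differed, where 5.57% of all genes did, and in siIGF2BP3 none did, where 3.59% of all genes did. An unadjusted p under 0.05 was found for 1, 8 and 3 of the 21 genes in siIGF2BP1, siIGF2BP2 and siIGF2BP3, and for 1871, 2505 and 2063 of all 13136 genes. In siIGF2BP2 all 8 were mRNAs. Of the 13 mRNAs, 10, 12 and 12 were above siControl in siIGF2BP1, siIGF2BP2 and siIGF2BP3. The median difference over the mRNAs was 0.02, 0.17 and 0.09, and that over all genes tested was -0.02, 0.10 and 0.09. DESeq2 also called none in siIGF2BP3. The called genes were MT-ATP8 and MT-ND6. The other 11 mRNAs differed from siControl by -0.03 to 0.05 in siIGF2BP1 (smallest adjusted p = 0.872), by 0.09 to 0.22 in siIGF2BP2 (0.0716) and by 0.05 to 0.20 in siIGF2BP3 (0.179), and no rRNA or tRNA was called.

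MT-ATP8 varied between replicates far more than any other mitochondrial mRNA. At 0 h it stood at 687 and 603 in siControl, at 315 and 660.0 in siIGF2BP1, at 259 and 261 in siIGF2BP2 and at 713 and 801 in siIGF2BP3. Both siIGF2BP2 libraries were below both siControl libraries, while 1 siIGF2BP1 library was below them and the other lay between them. In edgeR the difference was -1.31 (SE 0.08, adjusted p = 2.14e-53) in siIGF2BP2 and -0.40 (adjusted p = 5.33e-05) in siIGF2BP1. It was 0.23 (adjusted p = 0.0882) in siIGF2BP3.

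These p-values rest on a spread shared by all genes, which is much smaller than that of MT-ATP8 itself. With a spread that follows the gene, the adjusted p was 0.0606 in siIGF2BP2, 0.742 in siIGF2BP1 and 0.806 in siIGF2BP3, so neither call was kept. DESeq2 gave 0.00473 in siIGF2BP2 and 0.696 in siIGF2BP1. Without replicate 1 of siIGF2BP1 at 0 h, the difference in siIGF2BP1 was 0.03 (adjusted p = 0.980), and without replicate 2 it was -1.03.

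**Figure D4:**
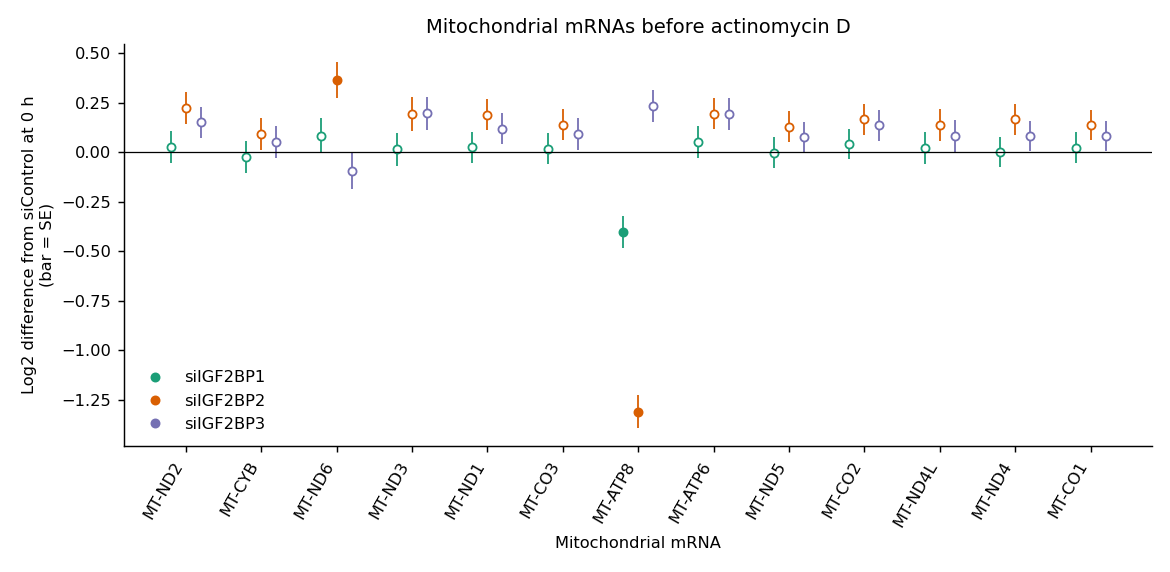
Log2 difference from siControl at 0 h (y axis) for the 13 mRNAs (x axis) in siIGF2BP1, siIGF2BP2 and siIGF2BP3. Bars are standard errors from the fit over all libraries and filled points have an edgeR adjusted p under 0.05; the filled points are MT-ATP8 in siIGF2BP1 and siIGF2BP2 and MT-ND6 in siIGF2BP2, and the bars of MT-ATP8 do not show its own spread between replicates.

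The low values of MT-ATP8 did not extend to its partner on the same transcript. MT-ATP8 had 25.05 to 32.8 reads per 100 reads of MT-ATP6 in 19 libraries and 11.1 to 21.9 in the other 5. Those 5 were replicate 1 of siIGF2BP1 at 0 h at 14.7, both siIGF2BP2 libraries at 0 h at 11.1 and 11.1, replicate 2 of siIGF2BP2 at 3 h at 21.9 and replicate 1 of siIGF2BP3 at 3 h at 12.99. They came from 3 conditions and 2 times, and in 3 of the 4 groups concerned, all but siIGF2BP2 at 0 h, the other replicate was among the 19. Over the same libraries MTATP6P1, a nuclear copy of MT-ATP6, stayed at 24.5 to 26.7 reads per 100 reads of MT-ATP6. Few reads fell on nuclear copies of MT-ATP8, with 1 to 15 on MTATP8P1 and 0 to 4 on MTATP8P2 in a library. What set the 5 libraries apart was not tested.

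**Figure D5:**
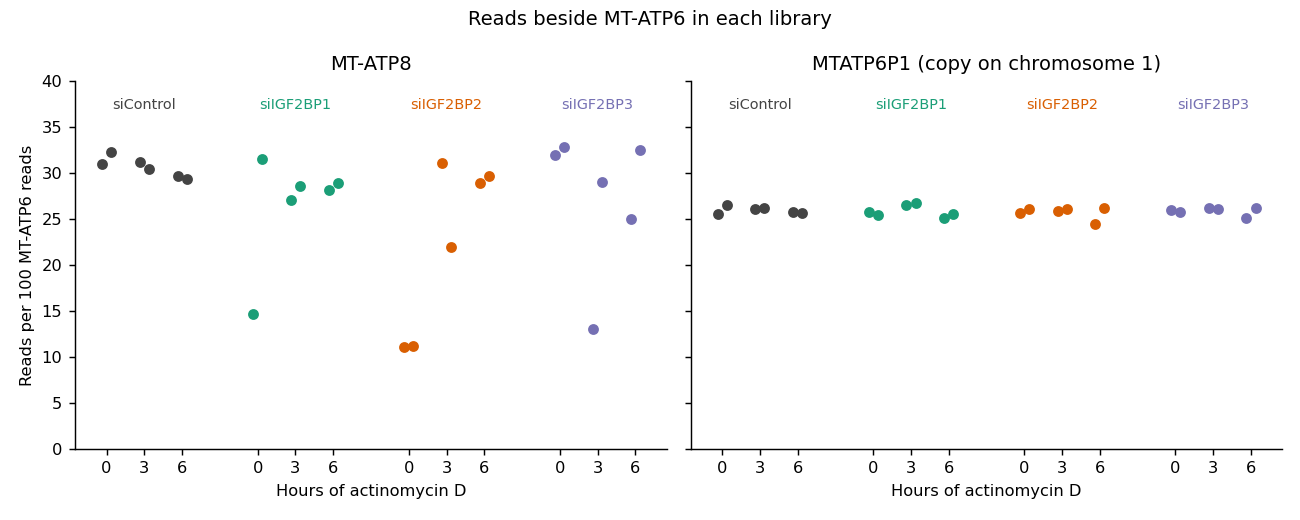
Reads of MT-ATP8 (left panel) and of the nuclear copy MTATP6P1 (right panel) per 100 reads of MT-ATP6 (y axes) in each library, by siRNA and hour (x axis). The left panel has 5 libraries at 11.1 to 21.9 below 19 at 25.05 to 32.8, whereas all 24 libraries lie at 24.5 to 26.7 in the right panel.

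MT-ND6 was the other mRNA called at 0 h. It stood at 76.5 and 60.9 in siControl, at 73.1 and 72.4 in siIGF2BP1, at 78.1 and 98.6 in siIGF2BP2 and at 63.8 and 64.7 in siIGF2BP3. Both siIGF2BP2 libraries were above both siControl libraries, 1 of them narrowly. The difference in siIGF2BP2 was 0.36 (SE 0.09, adjusted p = 0.00280), but it was 0.21 (adjusted p = 0.470) without replicate 2 of siControl and 0.19 (adjusted p = 0.568) without replicate 2 of siIGF2BP2, and DESeq2 gave an adjusted p of 0.113. This call therefore rested on single libraries.

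Between the knockdowns, MT-ATP8 and MT-ND6 were again the genes called at 0 h. In siIGF2BP2 against siIGF2BP1, 2 of 21 differed, where 12.1% of all genes did: MT-ATP8 by -0.91 (adjusted p = 1.82e-25) and MT-ND6 by 0.28 (adjusted p = 0.0226). In siIGF2BP3 against siIGF2BP1, MT-ATP8 alone differed, by 0.64 (adjusted p = 2.45e-12), where 6.66% of all genes did. In siIGF2BP3 against siIGF2BP2, where 2.91% of all genes differed, MT-ATP8 was 1.54 higher (adjusted p = 1.81e-73) and MT-ND6 lower by -0.46 (adjusted p = 5.81e-05). With a spread that follows the gene, the adjusted p of MT-ATP8 was 0.139, 0.345 and 0.0447 in these comparisons. The comparisons share libraries with those against siControl and are not separate evidence.

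The decay of mitochondrial RNA was not shown to depend on any IGF2BP protein. No slope of the 21 genes differed from siControl in any knockdown, where 0.0152%, 0% and 0.0228% of all genes did, and DESeq2 and edgeR's robust fit also called none. Unadjusted, 0, 1 and 0 of the 21 genes had a p under 0.05 in siIGF2BP1, siIGF2BP2 and siIGF2BP3. All 13 mRNAs fell in siIGF2BP1 and siIGF2BP3, and 12 of 13 in siIGF2BP2, where 69.1%, 67.2% and 71.3% of all genes fell. The exception was MT-ATP8 in siIGF2BP2, which changed by -0.35 (SE 0.35, adjusted p = 0.377) from its low 0 h values, or by 0.32 with TMM scaling, with 385 and 276 at 3 h and 186 and 221 at 6 h.

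For the other 12 mRNAs the slope differences from siControl ran from 0.01 to 0.36 in siIGF2BP1 (smallest adjusted p = 0.506), from -0.08 to 0.09 in siIGF2BP2 (0.727) and from -0.15 to 0.36 in siIGF2BP3 (0.378), with standard errors of 0.11 to 0.37. Differences of this size in log2 over 6 h could therefore not be resolved for the noisier mRNAs. The fast mRNAs were alike to within these errors: MT-ND2 changed by -3.67, -3.87 and -3.81 and MT-CYB by -3.76, -3.85 and -3.73 in siIGF2BP1, siIGF2BP2 and siIGF2BP3. MT-CO1, the slowest, changed by -0.89, -0.90 and -0.83. MT-ATP8 had the largest difference, 1.47 (SE 0.49, adjusted p = 0.643) in siIGF2BP2. It was 0.54 (SE 0.48, adjusted p = 0.593) in siIGF2BP1, whose 0 h libraries differed from each other, and 0.01 (SE 0.46, adjusted p = 0.995) in siIGF2BP3.

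Nuclear copies of the mitochondrial chromosome can take reads from these genes. Of 404 annotated copies, the 5 with the most reads were MTATP6P1 with 684915, MTCO1P12 with 72550, MTND2P28 with 64119, MTND4P12 with 4958 and MTND1P23 with 1121 over all libraries. MTATP6P1 (chr1:633696-634376) matches the mitochondrial sequence with 98.5% identity, MTCO1P12 (chr1:631074-632616) with 98.6% and MTND2P28 (chr1:629640-630683) with 98.4%. They lie in one stretch of chromosome 1, chr1:629081-634924, that matches chrM:3911-9755. The share of 100-base windows with an identical copy in the nuclear genome was 27.9% for MT-CO1, 26.1% for MT-ND2, 21.2% for MT-RNR1, 11.9% for MT-ATP6 and 10.97% for MT-ND1, with 4.67% for MT-CO3, 2.39% for MT-CO2 and 0% for the other mRNAs and MT-RNR2. Reads from such windows could not be given to either place. The 5 copies were the ones that passed the filter, and all fell over 6 h in each condition, with medians of -1.74, -1.61, -1.78 and -1.64 in siControl, siIGF2BP1, siIGF2BP2 and siIGF2BP3.

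The nuclear mRNAs for proteins that make, cut, tail or degrade mitochondrial RNA were also followed, as a list of 41 genes that were all tested. In siControl 39 of 41 fell over 6 h, with a median of -1.50, where 80.3% of all genes fell, and none rose. The largest falls were those of FASTKD5, an RNA-processing factor of mitochondrial granules, by 4.30, TRMT10C, a subunit of mitochondrial RNase P, by 4.11, and MTERF1, a factor that binds mitochondrial DNA behind the rRNA genes, by 3.43. From 0 to 3 h 32 of 41 fell, where 61.3% of all genes did, and TRMT10C changed by -2.23, TRMT5, a tRNA methyltransferase, by -2.20 and MTERF1 by -2.104. FASTKD5 fell by 2.24, TRMT10C by 1.86 and PDE12, which removes polyA tails in mitochondria, by 1.78 from 3 to 6 h, when 37 of 41 and 64.9% of all genes fell. The mRNAs of these factors were thus lost while the mitochondrial mRNAs were being lost, and their protein levels were not measured.

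In the knockdowns 36, 37 and 36 of the 41 fell in siIGF2BP1, siIGF2BP2 and siIGF2BP3, with medians of -1.14, -1.38 and -1.15, where 69.1%, 71.3% and 67.2% of all genes fell. FASTKD5 changed by -4.03, -4.15 and -3.83, TRMT10C by -3.903, -4.15 and -3.84 and TRMT5 by -3.47, -3.48 and -3.52. C1QBP, a matrix protein, rose by 0.17 in siIGF2BP3. At 0 h none of the 41 differed from siControl in any knockdown by edgeR, where 4.94%, 5.57% and 3.59% of all genes did, and 4, 5 and 4 had an unadjusted p under 0.05. Between knockdowns the calls were at about or below the share of all genes, with 3 of 41 in siIGF2BP2 against siIGF2BP1 (12.1% of all genes) and 3 of 41 in siIGF2BP3 against siIGF2BP1 (6.66% of all genes). TFAM, which packs mitochondrial DNA and starts its transcription, was higher by 0.42 (adjusted p = 9.63e-05) in siIGF2BP2 than in siIGF2BP1, as were MTERF3, a regulator of mitochondrial transcription, by 0.48 and MRM2, an rRNA methyltransferase, by 0.32. In siIGF2BP3 against siIGF2BP1, TFAM was higher by 0.38, MTERF3 by 0.49 and PRORP, the nuclease of mitochondrial RNase P, by 0.36, and between siIGF2BP3 and siIGF2BP2 none of the 41 was called.

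The mRNAs of nuclear-encoded subunits of the same respiratory complexes were long-lived by comparison. Of 76 listed, 74 were tested. Their median change over 6 h was -0.07 in siControl and 0.09, 0.08 and 0.12 in siIGF2BP1, siIGF2BP2 and siIGF2BP3, against medians over the mitochondrial mRNAs of -1.82, -1.60, -1.75 and -1.81 on the same ERCC scale. In siControl 14 of the 74 fell, where 80.3% of all genes did, and 0 rose, where 0.251% did. In the knockdowns 15, 14 and 16 rose, where 2.69%, 2.44% and 2.91% of all genes did. Falls were called for 6, 6 and 5, where 69.1%, 71.3% and 67.2% of all genes fell. The medians over all genes tested were -0.88, -0.69, -0.71 and -0.65, so the nuclear-encoded subunits lay above the typical gene and the mitochondrial mRNAs below it. These are differences in medians of chosen lists and carry no test.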

How the data were processed

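The authors transfected HepG2 cells, added actinomycin D, added ERCC RNA per total RNA, selected polyA RNA, prepared libraries with the SMARTer Stranded kit and sequenced single-end reads of 100 bases. Per the submitters' processing notes and the study's methods, reads were trimmed (Trimmomatic 0.39), aligned to hg38 (HISAT2 2.1.0) and counted per GENCODE gene with HTSeq. The deposited counts are raw whole-number read counts per gene and per ERCC RNA. Whether strand was used in counting is not given in the sources used here.

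Here, the ERCC total served as library size in place of the study's linear fit to attomole. Genes were kept at 1 CPM or more in at least 2 libraries, which left 13136 genes. The 45 rows of the Y copy of the pseudoautosomal region were left out, as were the 5 HTSeq summary rows. edgeR's quasi-likelihood test (edgeR 4.0.16, limma 3.58.1, R 4.3.3) was run on all 24 libraries, with 12 group means for levels and steps (12 residual degrees of freedom) and with a straight line over time for every siRNA (16 residual degrees of freedom). Slopes are given as the log2 change over 6 h, p-values were adjusted by Benjamini-Hochberg over all genes tested, and the threshold was 0.05. In the model of group means edgeR gave every gene the spread of the trend. A fit in which genes far from the trend keep their own spread (robust option) was therefore added after the data were seen. Among the mitochondrial genes tested, it gave MT-ATP8 its own spread in that model and left the others at or close to the trend. Half-lifetime is ln2 over the mean of the decay rates to 3 h and to 6 h. Tests were tried on simulated data. DESeq2 1.42.0, TMM scaling, the total of nuclear gene reads, other filters, replicate blocks, fits of the compared groups alone and fits without each library were the alternatives. P-values measure the spread between these libraries, which may be technical. Tables and plots were made with Python 3.11.15, pandas 2.3.3, scipy 1.17.1 and matplotlib 3.10.9. Positions and sequences were read from hg38 with GENCODE gene models that are newer than those of the counts.

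Named were all mitochondrial mRNAs and rRNAs, tRNAs that passed the filter, the targeted genes, the 3 largest called rises and falls among the nuclear factors in each comparison and the 5 nuclear copies with the most reads. MT-TF, MT-TG, MT-TH and MT-TL2 were named after their values were seen. The members, gene lists and tests were chosen with earlier results of these data known.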

Additional observations from a re-analysis of the deposited data

Results flagged for a closer look

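The 5 differences between knockdowns at 0 h listed here were picked out because the knockdowns differed from each other in edgeR's test over all genes. MT-ATP8 differed by -0.91 between siIGF2BP2 and siIGF2BP1, by 0.64 between siIGF2BP3 and siIGF2BP1 and by 1.54 between siIGF2BP3 and siIGF2BP2 (log2). Without replicate 2 of siIGF2BP1 the first was -0.28 (adjusted p = 0.105), and without replicate 1 of siIGF2BP1 the second was 0.20 (adjusted p = 0.349). MT-ND6 differed by 0.28 between siIGF2BP2 and siIGF2BP1 and by -0.46 between siIGF2BP3 and siIGF2BP2. The former was 0.10 (adjusted p = 0.710) without replicate 2 of siIGF2BP2, and its call was also lost without either siIGF2BP1 library, with TMM scaling (0.17, adjusted p = 0.0902), with nuclear gene reads (0.18, 0.0615), with no filter (0.0690) and in DESeq2 (0.199). Without replicate 2 of siIGF2BP2 the latter was -0.28 (adjusted p = 0.370), and DESeq2 gave an adjusted p of 0.0587. The causes were not tested.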

How the results depend on the processing

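The values rest on 2 libraries a group and on reads that nuclear copies can share, and the ERCC scale is relative to total RNA, not to cells. The MT-RNR1 rise from 0 to 3 h and the falls of 11 mRNAs over 6 h in siControl were also found with TMM scaling. The number of mitochondrial genes called at 0 h was the least stable result. With TMM scaling it was 3 in siIGF2BP1 (on balance in the other direction), 8 in siIGF2BP2, 1 in siIGF2BP3 and 1 in siIGF2BP3 against siIGF2BP1 (in the other direction). With nuclear gene reads it was 0, 8 and 1 in siIGF2BP1, siIGF2BP2 and siIGF2BP3, 1 in siIGF2BP3 against siIGF2BP1 (in the other direction) and 4 in siIGF2BP3 against siIGF2BP2. DESeq2 called 0 in siIGF2BP1, 1 in siIGF2BP2, 0 in siIGF2BP2 against siIGF2BP1, 0 in siIGF2BP3 against siIGF2BP1 and 1 in siIGF2BP3 against siIGF2BP2. The fit of the compared groups alone called 0 in siIGF2BP1, 1 in siIGF2BP2, 13 in siIGF2BP2 against siIGF2BP1 and 4 in siIGF2BP3 against siIGF2BP1. The robust fit, added after seeing the data, called 0, 1, 1 and 0 in those comparisons, and the fit with no filter called 1 in siIGF2BP2 against siIGF2BP1. The share of all genes called under each of these settings is not given here, so the counts cannot be set against it. The cause of the changes in these counts was not tested.

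For slope differences, comparing 6 h with 0 h and dropping 3 h called 1 gene in siIGF2BP1 and 1 in siIGF2BP2, and the fit with no filter also 1 and 1, MT-ATP8 in each case. The shares of all genes called in these fits, and in the fits below without 1 library, are not given here. The counts in this paragraph can therefore not be set against them. Leaving out 1 library at a time gave 0 to 1, 1 to 10 and 0 to 3 genes in siIGF2BP1, siIGF2BP2 and siIGF2BP3 at 0 h, and 0 to 2, 0 to 1 and 1 to 2 between knockdowns. It gave 20 to 21 and 17 to 20 genes for the siControl steps, 19 to 20, 18 to 20, 18 to 20 and 19 to 20 for the slopes by condition, and 0 for slope differences. By the 6 h rate alone the median half-lifetime was 3.30 h, 3.76 h and 3.31 h in siControl, siIGF2BP1 and siIGF2BP3, against 3.62 h, 4.05 h and 2.97 h. MT-ATP8 was itself the siControl median, and without it the latter values were 3.24 h, 3.48 h and 3.32 h. As a share of gene reads, what was left at 6 h in siControl, siIGF2BP1, siIGF2BP2 and siIGF2BP3 was 53.1%, 50.9%, 48.5% and 49.6% of mRNA, 150.02%, 141%, 152% and 129% of rRNA and 14.6%, 12.2%, 12.1% and 13.3% of tRNA-gene reads.

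Among called values, signs turned for MT-ATP8 in siIGF2BP1 at 0 h (0.034 without replicate 1 and -1.03 without replicate 2), for MT-ND4 from 0 to 3 h (0.021 with TMM), for MT-RNR2 from 3 to 6 h (0.20 with TMM, 0.064 with nuclear reads), and for MT-RNR1 from 3 to 6 h (0.12 with TMM). Signs also turned for values that were not called, among them the MT-RNR2 slopes of siControl (0.83 with TMM and 0.47 with nuclear reads) and siIGF2BP3 (0.58 with TMM). MT-ATP8 over 6 h in siIGF2BP2 was 0.32 with TMM, the MT-RNR2 slope of siIGF2BP2 was -0.0088 without replicate 2 at 6 h, and MT-TQ from 3 to 6 h was 0.56 without replicate 2 at 6 h. Same-numbered libraries of different groups deviated from their group means with correlations of -0.0431 to 0.088 on the ERCC scale and of -0.0447 to 0.216 with TMM, where 5 of 66 pairs of groups were over 0.1, 3 of them the times of siIGF2BP3. The numbers were therefore not taken as pairs. The replicate block moved a count of calls by at most 1, losing MT-RNR2 from 0 to 3 h (0.17, adjusted p = 0.0567 in edgeR, 20 genes left) and, with the block within conditions, the MT-RNR1 slope in siIGF2BP1 (0.83, adjusted p = 0.0693, 19 genes left).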
